A study of Mus musculus with 28 samples.

Results

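A set of 40 lysosomal genes was followed in the hippocampus of aged mice given human plasma: proteases, glycosidases and lipid hydrolases of the lumen, their cofactors, proteins of the limiting membrane, 2 regulators of the organelle and its turnover, and subunits of the proton pump. The list was set by symbol and used no measured value as a rule, but it was chosen with earlier results of these data known. Each symbol was represented by its brightest row. Of the 40, 39 had a row under their symbol and all 39 passed the filter on dim rows, out of 22256 distinct symbols and 15781 genes tested; Glb1, the lysosomal beta-galactosidase, was not analysed here.

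RNA was measured on whole-transcript microarrays, and values are log2 intensities. The 28 arrays formed 4 groups of 7, from mice injected with plasma of human cord blood, of young donors or of old donors, or with phosphate-buffered saline (PBS), the vehicle. Every animal, the PBS controls included, was of the immunodeficient NSG strain, which lacks mature T and B cells, had a mean age of 14 months and received 6 intravenous injections, and no group of untreated or young mice was analysed here. The study compared these groups to ask whether plasma, and the age of its donor, altered the aged hippocampus. Whether every array stands for its own animal is not in the labels, and the p-values cover only the variation among these arrays, which may be technical. The 8 hippocampal markers averaged between 8.37 and 8.98 log2 on all 28 arrays, and no other tissue was analysed here to set that range against. The signal of markers of neighbouring tissue varied, as described with the results it touches.

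Lysosomes are acidic organelles in which hydrolases break down proteins, sugars and lipids delivered by endocytosis and autophagy. The vacuolar ATPase, built from a membrane-embedded V0 part and a cytosolic V1 part, pumps the protons that acidify them and also fills synaptic vesicles in neurons. The transcription factor TFEB binds a promoter motif shared by many lysosomal genes, known as the CLEAR motif, and raises their expression together, and inherited loss of many of these hydrolases or membrane proteins causes storage disease of the brain.

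The core of that motif, CACGTG, was searched in windows from 250 bases before to 50 bases after the gene start, taken from RefSeq (GRCm38.p6), which were at hand for 33 of the 40 listed genes. It is its own reverse complement, so both strands read alike, and the longer form TCACGTGA contains it. CACGTG lay in 12 of the 33 windows (36.4%, Glb1 among them), against 2187 of 27025 windows of all genes (8.09%). TCACGTGA lay in 7 of 33 (21.2%), against 1.12% of all windows, and the full CLEAR palindrome, which extends that form by a base on each side, in 1 (3.03%, Cln3), against 0.37%. The following stretches show windows with the core, in Lamp1, which held it 4 times, Mcoln1, Cln3 and Ctsd. Then come Lamp2 and Cd63, whose windows held none and which gave the largest slopes on choroid plexus markers, described below. Of the 7 genes with such a slope at an adjusted p under 0.05, 2 held CACGTG (28.6%, Ctsd and Ctsl). Of the 26 other members with a window, 10 held it (38.5%). Both counts include Glb1, for which no slope was fitted. Each stretch is written 5′ to 3′ on the gene's strand, and capitals mark CACGTG.
Lamp1, chr8:13159081-13159160, plus strand: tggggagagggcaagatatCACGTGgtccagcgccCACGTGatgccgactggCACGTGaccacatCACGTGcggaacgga
Mcoln1, chr8:3500434-3500493, plus strand: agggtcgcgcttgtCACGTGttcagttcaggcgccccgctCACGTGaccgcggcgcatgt
Cln3, chr7:126583337-126583396, minus strand: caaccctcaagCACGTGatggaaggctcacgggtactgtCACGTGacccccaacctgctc
Ctsd, chr7:142387888-142387947, minus strand: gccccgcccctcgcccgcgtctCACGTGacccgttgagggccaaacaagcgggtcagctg
Lamp2, chrX:38456461-38456540, minus strand: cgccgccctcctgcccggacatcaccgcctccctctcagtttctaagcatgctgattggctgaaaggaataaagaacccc
Cd63, chr10:128909265-128909344, plus strand: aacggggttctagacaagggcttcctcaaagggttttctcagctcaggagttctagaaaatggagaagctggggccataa
A match is a description of these letters and shows neither binding nor its absence.

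No lysosomal gene differed between treatment groups after adjustment. With limma and Benjamini-Hochberg adjustment over all 15781 genes, 0 of 39 passed an adjusted p of 0.05 in any of the 7 comparisons, and the smallest adjusted p was 0.293 (Lipa, young plasma against PBS). Few genes of any kind passed: 0% in each comparison of a single plasma with PBS, in cord against old plasma and in cord against young plasma, 0.00634% in young against old plasma, and 0.019% in the average of the 3 plasma groups against PBS. The 3 comparisons with PBS share the same 7 PBS arrays, and their values are therefore given side by side and not as repeats of each other.

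At an unadjusted p of 0.05, between 0 and 4 of the 39 lysosomal genes passed in each comparison. Against PBS, 1 of 39 passed with cord plasma (8.74% of all genes did), 4 with young plasma (10.3% of members, against 11.2% of all genes) and 1 with old plasma (10.8% of all genes). Between plasma groups 0 passed for cord against old plasma (4.2% of all genes), 0 for young against old plasma (6.53%) and 2 for cord against young plasma (7.22%). For the 3 plasma groups averaged against PBS 2 passed, where 12.4% of all genes did. By direction, 0 were higher and 0 lower in cord than in old plasma (1.88% and 2.33% of all genes), 0 higher and 0 lower in young than in old plasma (3.26% and 3.28%), and 0 higher and 2 lower in cord than in young plasma (3.98% and 3.24%). In the averaged plasma groups 1 was higher and 1 lower than in PBS (7.53% and 4.83% of all genes). Shares near or under the background are not a result about the lysosomal genes.

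The median difference of the 39 genes lay close to 0 in every comparison, at −0.01 log2 for cord plasma against PBS, 0.01 for young plasma against PBS and 0.01 for old plasma against PBS, where the medians over all genes tested were 0.01, −0.0018 and 0.005. It was −0.01 for cord against old plasma, 0.0028 for young against old plasma, −0.02 for cord against young plasma and −0.0025 for the averaged plasma groups against PBS, where the medians over all genes were −0.00051, −0.01, 0.01 and 0.0023. The intervals show how large a difference would fit these arrays, each for 1 row of 1 gene and without allowance for the number of genes. The 95% interval of the difference lay within 0.25 log2 of 0, a 1.19-fold difference, for 37 of 39 genes with cord plasma, 35 with young plasma and 34 with old plasma, each against PBS. The genes outside that bound were Lipa and Cd63 in all 3, Ctsh and Atp6v0c with young and with old plasma, and Lamp2 with old plasma, and the farthest interval end was −0.47 (Lipa, young plasma). For all 39 lysosomal genes the ranges of the groups compared overlapped in each of the 7 comparisons. The share of all genes with such overlap was not counted.

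**Figure D1:**
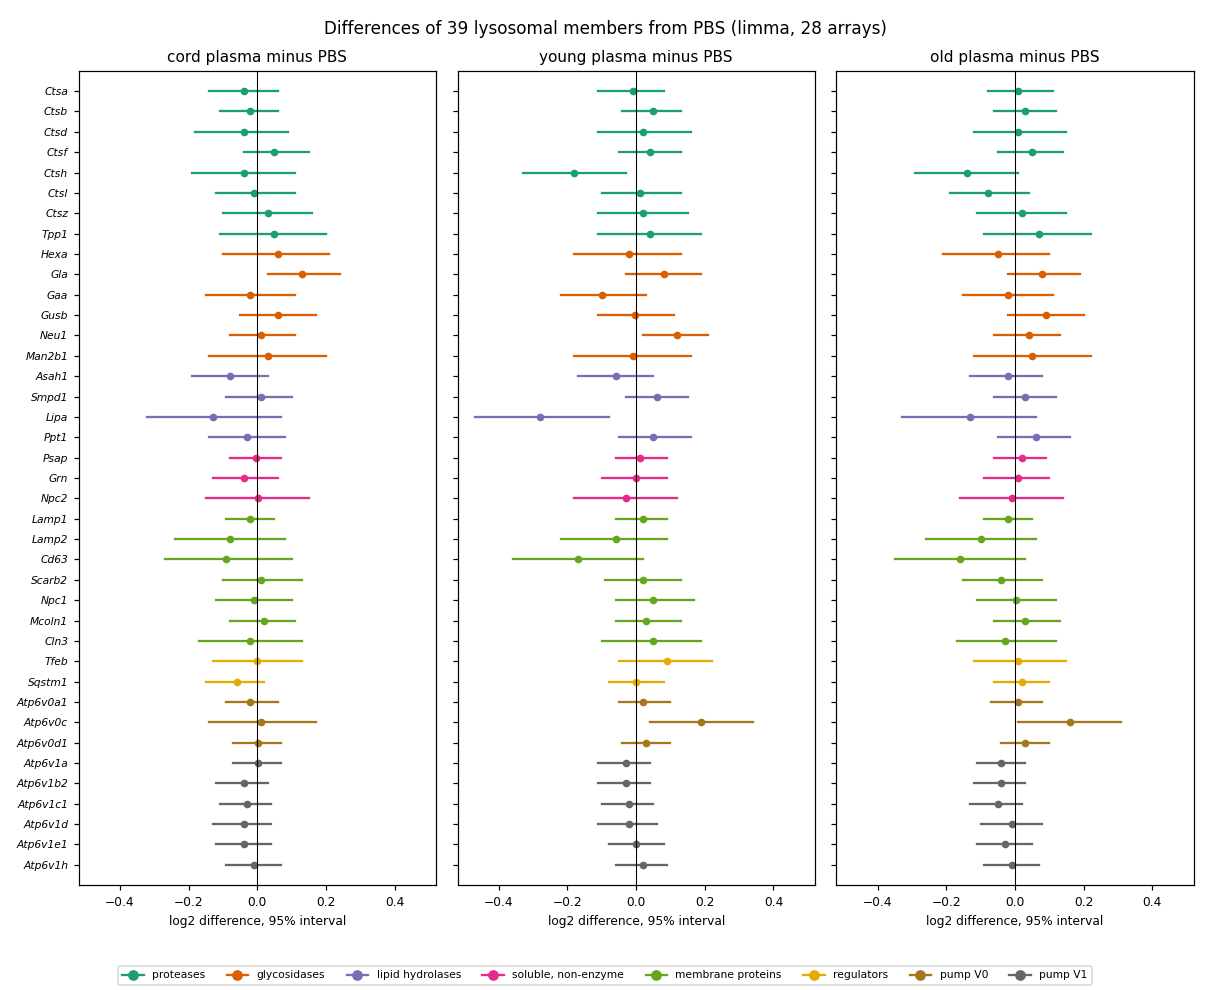
Difference of each of the 39 lysosomal genes from PBS for cord, young and old plasma (log2, points) with its 95% interval from limma (lines), coloured by role, 7 arrays per group. All points lie between −0.28 and 0.19, and the widest intervals are those of Lipa and Cd63.

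Among the 8 proteases, cathepsin D (Ctsd), the main aspartic protease of the lysosome, spread as widely within groups as between them. Ctsd was 10.22, 10.35 and 10.65 log2 (lowest, median, highest) in cord plasma, 10.28, 10.45 and 10.66 in young plasma, 10.35, 10.42 and 10.66 in old plasma, and 10.31, 10.47 and 10.58 in PBS. The 4 groups overlapped almost completely, and the differences from PBS were −0.04, 0.02 and 0.01 for cord, young and old plasma (SE 0.07 each). Cathepsin H (Ctsh), an aminopeptidase, was 6.45, 6.65 and 6.88 in cord plasma, 6.27, 6.59 and 6.78 in young plasma, 6.49, 6.57 and 6.65 in old plasma, and 6.51, 6.72 and 6.93 in PBS. All 7 old plasma arrays and 6 of 7 young plasma arrays lay below the PBS median, though the ranges overlapped. The Ctsh difference was −0.18 with young plasma (SE 0.07, limma adjusted p = 0.355), −0.14 with old plasma (SE 0.07, adjusted p = 0.511) and −0.04 with cord plasma (SE 0.07, adjusted p = 0.918), each against PBS. Cord plasma stood 0.14 above young plasma for Ctsh (SE 0.07, adjusted p = 0.697), and 0.09 without young plasma replicate 3.

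The cysteine protease cathepsin L (Ctsl) was 8.29, 8.35 and 8.57 in young plasma, against 8.09, 8.28 and 8.47 in old plasma, and was 8.25, 8.32 and 8.46 in cord plasma and 8.21, 8.33 and 8.50 in PBS. Its young plasma arrays all lay above the old plasma median, with overlapping ranges, and the difference between young and old plasma was 0.09 (SE 0.06, adjusted p = 0.811), and 0.06 without young plasma replicate 7. Tripeptidyl peptidase 1 (Tpp1), lost in a childhood ceroid lipofuscinosis, was 8.63, 8.90 and 9.17 in cord plasma, 8.81, 8.87 and 9.08 in young plasma, 8.77, 8.88 and 9.10 in old plasma, and 8.66, 8.86 and 9.09 in PBS. Its differences from PBS were 0.05, 0.04 and 0.07 for cord, young and old plasma (SE 0.07 each), and the groups overlapped. The cysteine cathepsin Ctsf was 7.60, 7.78 and 7.91 in cord plasma, 7.66, 7.76 and 7.93 in young plasma, 7.67, 7.81 and 7.86 in old plasma, and 7.63, 7.75 and 7.79 in PBS. The other 3, Ctsa, Ctsb and Ctsz, differed from PBS by between −0.04 and 0.05 with every plasma.

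Of the glycosidases, alpha-galactosidase A (Gla), the enzyme lost in Fabry disease, had the smallest unadjusted p with cord plasma. Gla was 6.96, 7.08 and 7.17 in cord plasma, 6.88, 7.05 and 7.26 in young plasma, 6.97, 7.05 and 7.13 in old plasma, and 6.86, 6.97 and 7.05 in PBS. Above the PBS median lay 6 of 7 cord plasma arrays and 7 of 7 old plasma arrays, but all ranges overlapped that of PBS. The Gla difference was 0.13 with cord plasma (SE 0.05, limma adjusted p = 0.497), 0.08 with young plasma (SE 0.05, adjusted p = 0.569) and 0.08 with old plasma (SE 0.05, adjusted p = 0.598), each against PBS. For the mean of the plasma groups it was 0.10 (SE 0.04, adjusted p = 0.341), and it was 0.05 without PBS replicates 4 and 6 and young plasma replicate 7, a choice made after seeing the data.

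The sialidase Neu1, which trims sialic acid from glycoproteins and glycolipids, was 7.79, 7.97 and 8.09 in cord plasma, 7.96, 8.08 and 8.23 in young plasma, 7.91, 8.01 and 8.05 in old plasma, and 7.90, 7.92 and 8.04 in PBS. All 7 young plasma arrays lay above the PBS median, and the ranges overlapped. The Neu1 difference was 0.12 for young plasma against PBS (SE 0.05, limma adjusted p = 0.352), 0.08 for young against old plasma (SE 0.05, adjusted p = 0.798) and −0.10 for cord against young plasma (SE 0.05, adjusted p = 0.677). Without the same 3 arrays the difference from PBS was 0.07, and without young plasma replicate 7 alone the difference of young from old plasma was 0.05. Hexa, which encodes the alpha subunit of beta-hexosaminidase, was 8.18, 8.45 and 8.53 in cord plasma, 7.98, 8.34 and 8.50 in young plasma, 7.93, 8.33 and 8.49 in old plasma, and 8.26, 8.31 and 8.50 in PBS. The lowest old plasma array and the lowest young plasma array lay below every cord plasma and PBS array, while the group ranges overlapped.

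Beta-glucuronidase (Gusb) was 6.77, 6.82 and 6.86 in cord plasma, 6.57, 6.78 and 6.97 in young plasma, 6.78, 6.82 and 6.94 in old plasma, and 6.61, 6.76 and 6.90 in PBS. The young plasma range held all the others, and the difference of young from old plasma was −0.09 (SE 0.05, adjusted p = 0.784), and −0.06 without young plasma replicate 2. Acid alpha-glucosidase (Gaa), which degrades glycogen, differed from PBS by −0.02, −0.10 and −0.02 with cord, young and old plasma (SE 0.06 each). The alpha-mannosidase Man2b1 differed from PBS by 0.03, −0.01 and 0.05 with cord, young and old plasma (SE 0.08 each).

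Among the lipid hydrolases, lysosomal acid lipase (Lipa), which frees cholesterol from its esters, gave the smallest p of the 39 genes. Lipa was 8.0, 8.14 and 8.43 in cord plasma, 7.49, 8.16 and 8.24 in young plasma, 7.86, 8.18 and 8.31 in old plasma, and 8.12, 8.29 and 8.47 in PBS. All 7 young plasma arrays lay below the PBS median, 3 of them below every PBS array, while the other 4 lay within the PBS range. The Lipa difference was −0.28 for young plasma against PBS (SE 0.09, limma adjusted p = 0.293), −0.13 for cord plasma (SE 0.09, adjusted p = 0.745), −0.13 for old plasma (SE 0.09, adjusted p = 0.653) and −0.18 for the mean of the plasma groups (SE 0.08, adjusted p = 0.344). The lowest array was young plasma replicate 7, without which the young plasma difference was −0.19. Its within-group SD of 0.19 was the widest of the 39.

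That array also had the lowest mean of 15 microglial markers of all 28 arrays, 6.73 log2, where the next lowest was 7.05. It was also the lowest of all arrays for the means of oligodendrocyte markers (8.94) and endothelial markers (6.73), and the highest for neuron markers (10.38). The group means of the microglial markers were 7.17 ± 0.06, 7.10 ± 0.17 and 7.17 ± 0.07 with cord, young and old plasma, and 7.17 ± 0.08 in PBS (SD, n = 7 each). In bulk tissue fewer cells of a type and less RNA per cell cannot be told apart. Markers of cerebral cortex moved with the groups as well. All 6 were higher in young plasma than in PBS, 5 at an unadjusted p under 0.05 and 0 after adjustment, and their mean was 7.73 ± 0.30, 7.99 ± 0.29 and 7.87 ± 0.32 with cord, young and old plasma, against 7.56 ± 0.12 in PBS (SD, n = 7 each). In a fit that kept the groups, the slope on these cortical markers was −0.13 for Lipa (SE 0.13, adjusted p = 0.607) and −0.19 for Ctsh (SE 0.10, adjusted p = 0.234). For 6 thalamus markers the highest array mean was 8.50, in PBS replicate 6, and the next highest was 7.60. With each plasma 0 of the 6 were higher than in PBS. At an unadjusted p under 0.05, 1 passed with old plasma and 0 with cord or young plasma, and 0 passed adjustment. The part of all these markers in the differences between groups was not tested.

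The acid ceramidase Asah1 was 7.90, 8.04 and 8.09 in cord plasma, 7.87, 8.03 and 8.16 in young plasma, 7.96, 8.03 and 8.27 in old plasma, and 7.97, 8.10 and 8.21 in PBS. No cord plasma array exceeded the PBS median, and the difference of cord plasma from PBS was −0.08 (SE 0.05, adjusted p = 0.678). The palmitoyl-protein thioesterase Ppt1 was 9.47, 9.65 and 9.72 in cord plasma, against 9.63, 9.69 and 9.84 in old plasma, and was 9.49, 9.69 and 9.84 in young plasma and 9.51, 9.68 and 9.74 in PBS. Cord plasma differed from old plasma by −0.09 for Ppt1 (SE 0.05, adjusted p = 0.999), and by −0.06 without cord plasma replicate 3. Acid sphingomyelinase (Smpd1) differed from PBS by 0.01, 0.06 and 0.03 with cord, young and old plasma (SE 0.04 each), while a second, dimmer row of the same symbol differed by 0.12, 0.24 and 0.20.

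**Figure D2:**
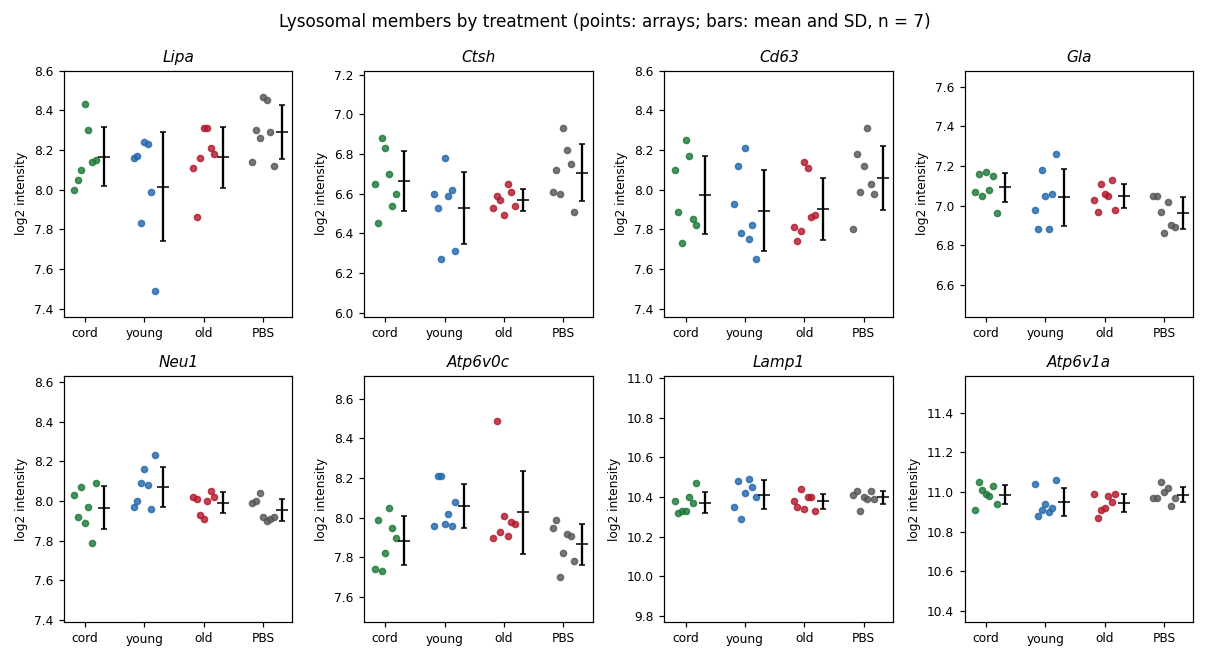
Log2 intensity of 8 lysosomal genes on each array (points) by treatment, with the mean and SD (bars, n = 7 per group). The lone low point of Lipa is young plasma replicate 7 at 7.49, and the lone high point of Atp6v0c is old plasma replicate 2 at 8.49; in all 8 panels the plasma ranges overlap that of PBS.

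Progranulin (Grn), whose loss causes a lysosomal disease or frontotemporal dementia depending on gene dose, was 8.51, 8.67 and 8.71 in cord plasma, 8.52, 8.66 and 8.76 in young plasma, 8.60, 8.69 and 8.78 in old plasma, and 8.58, 8.66 and 8.85 in PBS. Its differences from PBS were −0.04, −0.00079 and 0.01 for cord, young and old plasma (SE 0.05 each), smaller than the SDs within groups. Npc2, the soluble carrier that hands cholesterol to the membrane protein Npc1, was 7.93, 8.04 and 8.35 in cord plasma, 7.93, 8.02 and 8.24 in young plasma, 7.96, 8.01 and 8.25 in old plasma, and 7.86, 8.03 and 8.32 in PBS. Prosaposin (Psap), the precursor of the saposin cofactors, differed from PBS by at most 0.02 with any plasma (SE 0.04 each).

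Of the membrane proteins, Lamp1, a heavily glycosylated protein that lines the lysosomal membrane, had a within-group SD of 0.05 log2. Of all genes 1.51% had a narrower one, and genes of like brightness were not compared. Lamp1 was 10.32, 10.37 and 10.47 in cord plasma, 10.29, 10.42 and 10.49 in young plasma, 10.33, 10.38 and 10.44 in old plasma, and 10.33, 10.40 and 10.43 in PBS. The differences from PBS were −0.02, 0.02 and −0.02 for cord, young and old plasma (SE 0.03 each). Its relative Lamp2, which also serves chaperone-mediated autophagy, was 8.78, 8.85 and 9.22 in cord plasma, 8.71, 8.89 and 9.18 in young plasma, 8.58, 8.88 and 9.09 in old plasma, and 8.87, 8.99 and 9.15 in PBS. Its differences from PBS were −0.08, −0.06 and −0.10 for cord, young and old plasma (SE 0.08 each).

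The tetraspanin Cd63, found on late endosomes, lysosomes and exosomes, was 7.73, 7.89 and 8.25 in cord plasma, 7.65, 7.82 and 8.21 in young plasma, 7.74, 7.86 and 8.14 in old plasma, and 7.80, 8.03 and 8.31 in PBS. The PBS median was exceeded by 2 of 7 arrays in young plasma and 2 of 7 in old plasma, and the ranges overlapped. The Cd63 difference was −0.09 with cord plasma (SE 0.09, adjusted p = 0.85), −0.17 with young plasma (SE 0.09, adjusted p = 0.507) and −0.16 with old plasma (SE 0.09, adjusted p = 0.575), each against PBS. Of 12 choroid plexus markers, 11 were also lower than in PBS with each plasma, with medians of −0.31, −0.19 and −0.17 for cord, young and old plasma and none at an unadjusted p under 0.05. With their mean as a covariate the Cd63 difference of old plasma from PBS was −0.13, and those of cord and young plasma are not reported here. The part of choroid plexus signal in the Cd63 differences was not tested. Mcoln1, a cation channel of the lysosomal membrane, was 8.07, 8.22 and 8.35 in cord plasma, 8.07, 8.23 and 8.40 in young plasma, 8.19, 8.24 and 8.31 in old plasma, and 8.12, 8.18 and 8.29 in PBS. Cln3, lost in juvenile ceroid lipofuscinosis, was 6.20, 6.34 and 6.67 in cord plasma, 6.27, 6.47 and 6.62 in young plasma, 6.25, 6.40 and 6.50 in old plasma, and 6.21, 6.37 and 6.64 in PBS. Groups overlapped for both. Npc1 and Scarb2, the receptor that delivers glucocerebrosidase to lysosomes, differed from PBS by between −0.04 and 0.05.

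The regulator Tfeb was 5.13, 5.25 and 5.32 in cord plasma, 5.18, 5.31 and 5.43 in young plasma, 5.01, 5.18 and 5.51 in old plasma, and 4.97, 5.25 and 5.35 in PBS. Its differences from PBS were −0.0017, 0.09 and 0.01 for cord, young and old plasma (SE 0.06 each), and its row lay not far above the filter of 4.68. The autophagy receptor Sqstm1 (p62), which carries ubiquitinated cargo, was 10.20, 10.28 and 10.33 in cord plasma, 10.25, 10.29 and 10.55 in young plasma, 10.29, 10.35 and 10.41 in old plasma, and 10.25, 10.35 and 10.40 in PBS. No cord plasma array exceeded the PBS or the old plasma median. The Sqstm1 difference was −0.06 for cord plasma against PBS (SE 0.04, limma adjusted p = 0.675) and −0.08 for cord against old plasma (SE 0.04, adjusted p = 0.999).

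The 9 proton pump subunits were mostly steady. The within-group SD of 8 of them was among the narrowest of all genes, with only 1.5% (Atp6v0d1) to 8.32% (Atp6v1d) of genes narrower. The median SD was 0.0938 over the 39 genes and 0.126 over all genes tested. Those 8 averaged 8.82 (Atp6v1h) to 11.30 log2 (Atp6v1b2), and their SDs were not compared with those of genes of like brightness. Atp6v1a, the catalytic V1 subunit that hydrolyses ATP, was 10.91, 10.99 and 11.05 in cord plasma, 10.88, 10.92 and 11.06 in young plasma, 10.87, 10.95 and 10.99 in old plasma, and 10.93, 10.97 and 11.05 in PBS. Its differences from PBS were 0.00087, −0.03 and −0.04 for cord, young and old plasma (SE 0.03 each). The 6 V1 subunits differed from PBS by between −0.05 and 0.02 with any plasma, and all 6 were below 0 with old plasma, none at an unadjusted p under 0.05. The V0 subunits Atp6v0a1 and Atp6v0d1 differed by between −0.02 and 0.03.

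The exception was Atp6v0c, the proteolipid that forms the proton-conducting ring. Atp6v0c was 7.73, 7.90 and 8.05 in cord plasma, 7.96, 8.02 and 8.21 in young plasma, 7.90, 7.97 and 8.49 in old plasma, and 7.70, 7.91 and 7.99 in PBS. All 7 young plasma arrays lay above the PBS median, and 1 old plasma array stood far above all others. The Atp6v0c difference was 0.01 with cord plasma (SE 0.07, adjusted p = 0.977), 0.19 with young plasma (SE 0.07, limma adjusted p = 0.343) and 0.16 with old plasma (SE 0.07, limma adjusted p = 0.442), each against PBS. It was −0.18 for cord against young plasma (SE 0.07, adjusted p = 0.672) and −0.14 for cord against old plasma (SE 0.07, adjusted p = 0.999). Without old plasma replicate 2 the difference of old plasma from PBS was 0.08, and that of cord from old plasma was −0.07. The cortical markers, highest in young plasma and lowest in PBS by group mean, gave Atp6v0c a slope of 0.18 (SE 0.10, limma adjusted p = 0.28). RefSeq lists 2 pseudogene copies of Atp6v0c, and whether the probes of this row tell them apart was not tested.

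In the authors' deposited table, the unadjusted p was under 0.05 for 2 of the 39 genes with cord plasma (Gla and Sqstm1), 3 with young plasma (Lipa, Neu1 and Atp6v0c), 2 with old plasma (Gla and Ctsh) and 1 over the 4 groups (Atp6v0c). Over all its rows the authors' deposited table had 9.27%, 8.16%, 10.7% and 9.53% under that threshold. The smallest of these in the authors' deposited table was 0.00633 for Atp6v0c with young plasma.

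Other lysosomal genes were counted in the same way. A further 4 lists held 84 genes, of which 75 were tested: hydrolases (25 of 28), membrane and sorting proteins (25 of 25), relatives of TFEB with the signalling proteins of the lysosomal surface (14 of 15) and the remaining pump subunits (11 of 16). None passed adjustment in any of the 7 comparisons. At an unadjusted p of 0.05, 6 of 75 were higher and 1 lower with cord plasma, 5 higher and 3 lower with young plasma, and 4 higher and 2 lower with old plasma, each against PBS, where 4.96%, 6.07% and 6.62% of all genes were higher and 3.78%, 5.11% and 4.15% lower. With old plasma against PBS the difference was 0.21 for Plbd2, a phospholipase B-like protein of the lumen (SE 0.06, limma adjusted p = 0.229), and 0.19 for Idua, the alpha-L-iduronidase that degrades glycosaminoglycans (SE 0.06, limma adjusted p = 0.28). For the averaged plasma groups against PBS it was 0.09 for M6pr, the small mannose 6-phosphate receptor that sorts hydrolases (SE 0.03, limma adjusted p = 0.243), and 0.09 for Tfe3, a relative of TFEB (SE 0.03, limma adjusted p = 0.24). Between cord and young plasma the difference was 0.15 for Lamtor2, a scaffold of mTOR signalling on lysosomes (SE 0.04, limma adjusted p = 0.668), and −0.12 for the pump subunit Atp6v1g1 (SE 0.04, limma adjusted p = 0.668).

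The signal of choroid plexus markers differed widely between arrays, and 7 of the 39 lysosomal genes were higher where it was stronger. The mean of 12 choroid plexus markers, genes of the secretory epithelium that lies against the hippocampus, split the arrays into separate sets: 13 arrays at 7.50 to 8.63 log2 (3 cord, 3 young and 3 old plasma and 4 PBS) and 15 arrays at 5.95 to 6.49 (4, 4 and 4 plasma arrays and 3 PBS). Ttr, the transthyretin of that epithelium, ranged between 7.16 and 12.92 over the arrays. The group means of the markers were 6.92 ± 1.10, 7.03 ± 0.97 and 7.07 ± 1.0 with cord, young and old plasma, and 7.24 ± 1.01 in PBS (SD, n = 7 each). With the marker mean as a covariate, 0 of 39 lysosomal genes passed in any of the 7 treatment comparisons, and the share of all genes was not recorded.

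In a limma fit with the groups and this marker mean, 7 of 39 lysosomal genes (17.9%) had a positive slope at an adjusted p under 0.05, against 2.79% of all genes, and 0 had a negative one (0.0887% of all genes). A slope is the log2 change of a gene per log2 unit of the marker mean. By role they were 3 of 8 proteases (Ctsd, Tpp1 and Ctsl), 1 of 4 lipid hydrolases (Smpd1), 1 of 3 soluble cofactors and lumenal proteins (Npc2) and 2 of 7 membrane proteins (Lamp2 and Cd63), with 0 of 6 glycosidases, 0 of 2 regulators and 0 of 9 pump subunits. With the replicate number as a block, 2 of the 7 passed, Lamp2 (0.11, limma adjusted p = 0.0241) and Ctsd (0.09, limma adjusted p = 0.0305). The share of all genes passing with that block was not recorded. The number and the marker signal moved together in part, since all 4 arrays numbered 4 were among the 13 with more signal and all 4 arrays numbered 3 and all 4 numbered 6 among the 15 with less. The slope was positive for 32 of 39 genes, with a median of 0.02, where 52.3% of all genes had a positive slope and the median was 0.0015.

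Lamp2 had a slope of 0.13 (SE 0.02, limma adjusted p = 1.30e-06). Its values were 8.88, 9.06 and 9.22 on the 13 arrays with more choroid plexus marker signal, against 8.58, 8.85 and 8.91 on the other 15, and 12 of the 13 lay above all 15. Ctsd had a slope of 0.11 (SE 0.01, adjusted p = 3.09e-06), and was 10.42, 10.56 and 10.66 on the 13 arrays, against 10.22, 10.35 and 10.51 on the 15. Cd63 had a slope of 0.14 (SE 0.02, adjusted p = 0.000302), and was 7.65, 8.12 and 8.31 on the 13 arrays, against 7.73, 7.82 and 8.03 on the 15. Ranges overlapped for all 3 genes, with 9 of 13 arrays for Ctsd and 10 of 13 for Cd63 above all 15. Slopes were 0.10 for Npc2 (SE 0.02, adjusted p = 0.00131), 0.09 for Tpp1 (SE 0.02, adjusted p = 0.0106), 0.07 for Ctsl (SE 0.02, adjusted p = 0.0147) and 0.05 for Smpd1 (SE 0.01, adjusted p = 0.0261). All 7 slopes were positive within each of the 4 treatment groups. Man2b1 just missed the threshold, with a slope of 0.09 (SE 0.03, adjusted p = 0.0505), as did Psap with 0.04 (SE 0.01, adjusted p = 0.0742) and Ctsa with 0.05 (SE 0.02, adjusted p = 0.079). Of the 13 arrays, 10 lay above all 15 for Psap.

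**Figure D3:**
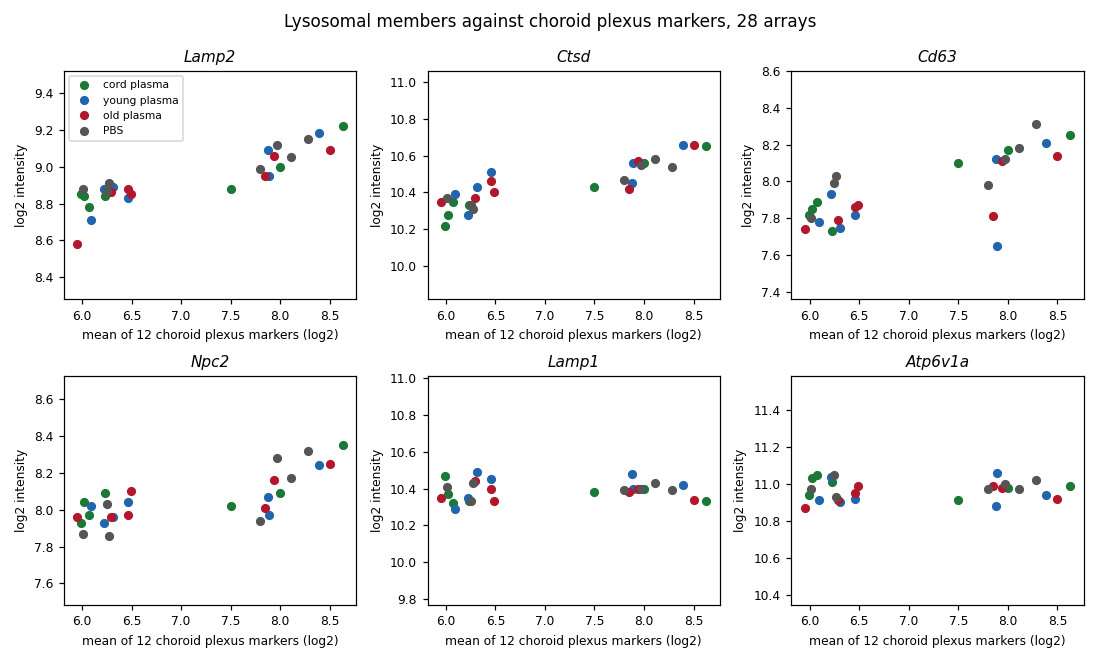
Log2 intensity of 6 lysosomal genes against the mean of 12 choroid plexus markers (log2), 1 point per array, coloured by treatment. The medians of Lamp2, Ctsd, Cd63 and Npc2 are higher on the 13 arrays at the right (marker mean 7.50 or more) than on the 15 at the left, with overlapping ranges and 1 Cd63 array at the right, young plasma replicate 7 at 7.65, below all 15; Lamp1 and Atp6v1a have close medians on both sides.

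Within the 13 arrays alone and within the 15 alone, which leaves fewer arrays in each fit, 0 of 39 genes passed. The share of all genes passing was not recorded for these fits or for those with arrays left out. The counts are therefore not a result about the lysosomal genes alone. There the Lamp2 slope was 0.27 (adjusted p = 0.371) and 0.37 (adjusted p = 0.405), and on the 15 arrays the Tpp1 slope was −0.04 (adjusted p = 0.95) and the Smpd1 slope −0.0017 (adjusted p = 0.998). Leaving out cord plasma replicate 4 and old plasma replicate 4, the arrays with the highest marker means, left 4 of the 7 past the threshold. With 1 array left out, Smpd1 missed the threshold without PBS replicate 5, cord plasma replicate 4 or old plasma replicate 4, Ctsl without old plasma replicate 4, and Tpp1 without cord plasma replicate 4. The second row of Smpd1 had a slope of −0.03 (SE 0.02, adjusted p = 0.727), so the rows of that gene disagreed.

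Lamp1 had a slope of 0.0034 (SE 0.01, adjusted p = 0.962), and the 9 pump subunits had slopes between −0.02 and 0.01. The lowest slopes were those of Tfeb, at −0.02 (SE 0.02, adjusted p = 0.824), and Atp6v0c, at −0.02 (SE 0.03, adjusted p = 0.858), followed by Atp6v1h at −0.0044, Atp6v0a1 at −0.0043 and Asah1 at −0.0021. Past the threshold, 2.79% of all genes had a positive slope and 0.0887% a negative one. Of the 75 other lysosomal genes, 6 had a positive slope past the threshold and 0 a negative one. Among them were the protease Ctsc (0.19, SE 0.03, adjusted p = 1.57e-05), the fucosidase Fuca1 (0.11), the membrane proteins Laptm4a (0.05) and Laptm4b (0.07), and Mitf, a relative of TFEB (0.10). Of these, Laptm4a missed the threshold in 19 of 28 fits with 1 array left out, and Laptm4b without old plasma replicate 4.

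**Figure D4:**
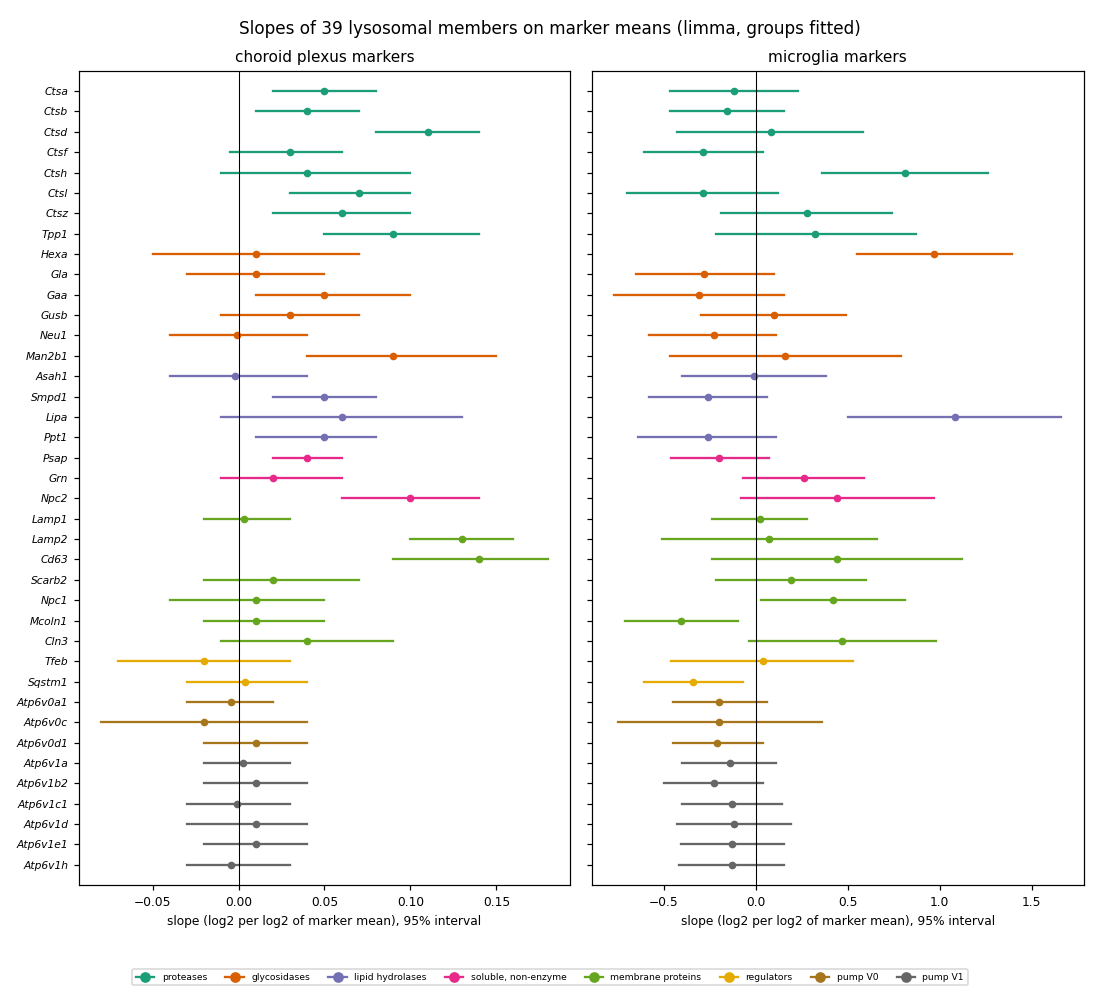
Slope of each of the 39 lysosomal genes on the mean of the choroid plexus markers and on the mean of the microglial markers (log2 per log2), with 95% intervals from limma, coloured by role. On choroid plexus markers Cd63, Lamp2, Ctsd, Npc2 and Tpp1 lie highest and the 9 pump subunits lie near 0; on microglial markers Lipa, Hexa and Ctsh stand apart at 0.81 to 1.08. The axes of the panels differ in scale.

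On microglial markers, 3 of 39 genes (7.69%) had a positive slope past the threshold, against 5.27% of all genes, and 0 a negative one (1.25% of all genes), a share near the background. They were Hexa, with a slope of 0.97 (SE 0.20, adjusted p = 0.0047), Lipa, with 1.08 (SE 0.28, adjusted p = 0.0192), and Ctsh, with 0.81 (SE 0.22, adjusted p = 0.0246). None passed without young plasma replicate 7, when the slopes were 1.01 for Hexa, 0.57 for Lipa and 1.09 for Ctsh. The share of all genes passing without that array was not recorded. Next in size were Cln3 at 0.47 (SE 0.25, adjusted p = 0.293) and Npc2 at 0.44 (SE 0.26, adjusted p = 0.352). The most negative slopes were those of Mcoln1, at −0.41 (SE 0.15, adjusted p = 0.101), Sqstm1, at −0.34 (SE 0.13, adjusted p = 0.125), and Gaa, at −0.31 (SE 0.22, adjusted p = 0.48), followed by Ctsl and Ctsf at −0.29. All 9 pump subunits had negative slopes, between −0.23 and −0.12, none past the threshold. Young plasma replicate 7 was the highest of all 28 arrays for Mcoln1 (8.40), Sqstm1 (10.55), Ctsl (8.57) and Ctsf (7.93). It was not the highest for Gaa (10.10, against 10.16 in PBS replicate 2). Of the pump subunits it was highest for Atp6v0d1, Atp6v1a and Atp6v1h, and not for the others. The negative slopes without that array are not reported here.

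**Figure D5:**
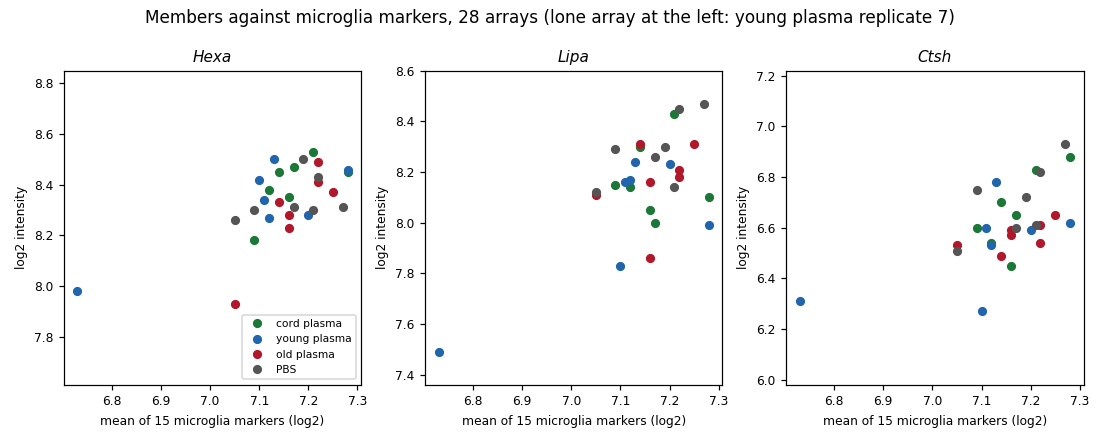
Log2 intensity of Hexa, Lipa and Ctsh against the mean of 15 microglial markers (log2), 1 point per array, coloured by treatment. The lone array at the left is young plasma replicate 7, with a marker mean of 6.73, and the other 27 lie between 7.05 and 7.28.

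Slopes on 6 further marker means were added after those above had been seen. On the mean of 10 oligodendrocyte markers, which ranged between 8.94 and 9.60 log2 over the arrays, 2 of 39 lysosomal genes (5.13%) had a positive slope past the threshold, against 1.2% of all genes, and 0 a negative one (0.114%). With 1 array left out that count ranged between 1 and 3, and the share of all genes was not recorded. Npc1, the membrane protein that exports cholesterol, had a slope of 0.40 (SE 0.08, limma adjusted p = 0.00338), positive in all 4 groups and past the threshold with each array left out in turn (0.34 to 0.46). Lipa had a slope of 0.58 (SE 0.15, limma adjusted p = 0.045), and missed the threshold in 19 of 28 such fits (0.43 to 0.69).

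On the mean of the 6 cortical markers 1 of 39 had a negative slope past the threshold (2.56%, against 6.01% of all genes) and 0 a positive one (4.47%). It was Man2b1, with a slope of −0.40 (SE 0.09, limma adjusted p = 0.0053) that ranged between −0.45 and −0.31 with 1 array left out. The count of members then ranged between 1 and 5, the highest without cord plasma replicate 3, and the share of all genes was not recorded. The cortical slope was below 0 for 35 of 39 lysosomal genes, with a median of −0.08, where 45.1% of all genes had a positive slope and the median was −0.02. On astrocyte, neuron, endothelial and thalamus markers 0 of 39 passed, where 0.146%, 0.019%, 0.71% and 0.101% of all genes had a positive slope and 0.00634%, 0%, 0.019% and 0.019% a negative slope past the threshold.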

How the data were processed

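RNA of mouse hippocampus was hybridised to 28 Affymetrix whole-transcript arrays, 7 in each of 4 groups named by the sample titles. The authors deposited log2 intensities; RMA is named in the submitters' processing notes, and its version is not given in the sources used here. This method corrects background and gives all arrays nearly the same distribution, which removes changes common to most genes. A second table held their log2 means, linear intensity means, fold differences (ratios) and unadjusted p-values for each plasma against PBS, per the file headers; its log2 group means equalled those computed from the value table within 8.57e-09 in all 23410 rows. Its 12 columns of SDs and SD bounds were not used. Arrays correlated at 0.976 to 0.995 and had medians of 4.96 to 5.09 log2; the number of arrays, not a read depth, limits precision.

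Gene symbols came from the authors' combined name column. The row with the highest mean stood for each of 898 symbols with several rows, Smpd1 and Atp6v1b2 among the members, and genes with a mean under the 30th percentile of named rows (4.68 log2) were then left out. limma 3.58.1 in R 4.3.3 was fitted with 1 mean per group over all 28 arrays, with eBayes moderation and Benjamini-Hochberg adjustment over 15781 genes (threshold 0.05, 95% intervals), for 7 comparisons; slopes on marker means were fitted with the groups. The code was tested on simulated data. The members, gene lists and tests were chosen with earlier results of these data known. Named genes were members past the threshold, the 3 smallest p-values of each comparison, Ctsd, Lamp1, Grn, Tfeb, Atp6v0c and Atp6v1a, the 5 largest slopes in each direction on choroid plexus and microglial markers and, of other lysosomal lists, those with an unadjusted p under 0.01. Other members are named to account for all of them; non-members with a slope past the threshold were named after their values were seen, and some are not reported here. The fits were repeated with every named gene kept, with the filter at the 50th percentile, centring on the array median, the mean over a symbol's rows, a trended and robust fit, a replicate block, a choroid plexus covariate, the arrays of 2 groups alone, and each array left out. Promoter windows came from RefSeq (GRCm38.p6), and motifs were counted by exact match.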

Additional observations from a re-analysis of the deposited data

Results flagged for a closer look

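In 12 of 156 sets of 7 arrays (39 genes in 4 groups), 1 array stood far from the other 6, with a gap to its nearest neighbour above Dixon's 95% critical value; chance alone would give about 7.8 such sets. The widest gap was that of Atp6v0c, the proton-conducting ring subunit, in old plasma replicate 2, at 8.49 log2 against 8.01 for the next array. In young plasma replicate 7, the array with the lowest microglial marker mean, Ctsl was 8.57 and Sqstm1 10.55, each above the other 6 arrays of its group. In cord plasma, Psap was low in replicate 3 (11.40), Npc2 high in replicate 4 (8.35), the array with the highest choroid plexus marker mean, and Atp6v0a1 high in replicate 2 (11.27). In young plasma replicate 3, Scarb2 was low at 9.15. PBS replicate 1 was low for Ppt1 (9.51), Atp6v1b2 (11.16) and Atp6v1e1 (10.37), and PBS replicate 3 was low for Lamp1 (10.33) and high for Atp6v1h (8.92). The part of these arrays' tissue makeup in the values was not tested.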

How the results depend on the processing

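In all 7 treatment comparisons, 0 of 39 members passed adjustment under every alternative and with each array left out. The share of all genes passing was not recorded for the alternative settings, here or in the results above. A moved count is therefore not a result about the members alone. Counts at an unadjusted p under 0.05 were small and moved. Without PBS replicates 4 and 6 and young plasma replicate 7, a choice made after seeing the data, they were 0 for cord plasma, 1 for young plasma, 0 for old plasma and 0 for the averaged plasma groups, each against PBS, and 1 for cord against old and 1 for cord against young plasma. For old plasma against PBS the count was 2 with the mean over a symbol's rows and 2 with the choroid plexus covariate. For cord against old plasma it was 1 with the filter at the 50th percentile, 1 after centring, 1 with the trended and robust fit and 1 with the arrays of those groups alone; for cord against young plasma it was 1 after centring and 1 with those groups alone. With 1 array left out, the counts ranged from 1 to 1 for cord plasma, 2 to 6 for young plasma and 0 to 3 for old plasma against PBS, 0 to 2 for cord against old, 0 to 1 for young against old and 1 to 3 for cord against young plasma, and 0 (without PBS replicate 4) to 6 (without PBS replicate 1) for the averaged plasma groups. The median differences then lay at −0.02 to −0.0028, −0.0034 to 0.03, −0.01 to 0.02, −0.03 to −0.00024, −0.0046 to 0.02, −0.04 to −0.01 and −0.01 to 0.02, in the same order. The choroid plexus slope passed for 11 members with the trended and robust fit, 4 without the 2 arrays farthest from the median, 0 within the 13 arrays and 0 within the 15, and 5 to 9 with 1 array left out; within the 15 the slopes of Smpd1 (−0.0017) and Tpp1 (−0.04) reversed. The microglial slope passed for 0 members without the 2 farthest arrays (young plasma replicates 7 and 6), 0 without the 3 arrays, and 0 to 3 with 1 array left out, 0 without young plasma replicate 7. The cause was not tested. Over all genes the replicate numbers did not meet the criterion for pairing: of 42 pairs with a shared number 12 correlated above 0.1 (−0.189 to 0.414), and 2 of 28 arrays correlated best with their own number. The choroid plexus signal did follow some numbers (all 4 arrays numbered 4 were high, all numbered 3 or 6 low). With the replicate number as a block, the unadjusted counts were 3 for old plasma and 5 for the averaged plasma groups against PBS and 1 for cord against old plasma, and the slopes passed for 2 members on choroid plexus and 0 on microglial markers.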

Other observations

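Some of the 75 other lysosomal genes also had a slope on microglial markers past the threshold. Of all genes, 5.27% had a positive slope past it and 1.25% a negative one. The cysteine protease cathepsin S (Ctss) had a slope of 0.98 (SE 0.26, limma adjusted p = 0.0211), and it was 1.84 without young plasma replicate 7, the array with the lowest microglial marker mean (limma adjusted p = 0.0161). A further 6 passed over all arrays and missed the threshold without that array. They were the phospholipase Pla2g15 (0.97 over all arrays, 0.34 without it), the glycosylasparaginase Aga (0.92 and 0.89), the cystine transporter Ctns (0.83 and 0.77), the cation channel Tpcn1 (0.76 and 0.37), the acid phosphatase Acp2 (−0.53 and −0.19) and Rragc, a GTPase of amino acid signalling at the lysosome (−0.66 and −0.74). These genes were named after their slopes had been seen.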
